A study of Mus musculus with 2 samples.

Results

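The Mir322-Mir503 cluster is a row of 7 microRNA hairpin genes on the minus strand of mouse chromosome X: Mir322, Mir503, Mir351, Mir542, Mir450-2, Mir450-1 and Mir450b. They were picked by GENCODE M21 gene name, by a rule that uses no measured value, though with earlier results of these data known. They are 7 of the 2202 microRNA genes in the tables. A gene was called detected at 10 or more counts in each library, which all 7 members reached, as did 340 genes in all. The data are microRNA-seq read counts from heart tissue of 10-day-old male mice of the B6CASTF1/J strain, a first-generation hybrid of C57BL/6J and CAST mice. There are 2 libraries, 1 per mouse by the sample names, and they are biological replicates 1 and 2 of the only group. Both carry the same donor identifier in the labels, so that they come from separate mice is an assumption. No allele, transgene or treatment is named, so no contrast between conditions exists, and what follows describes levels and how far the 2 libraries differ. In a male the only X chromosome comes from the mother, and the strain name by convention lists the mother first, here C57BL/6J.

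MicroRNA genes such as these are transcribed as long primary RNAs, from which the enzyme Drosha cuts hairpins and Dicer cuts mature forms of about the length of a short interfering RNA. A mature form is loaded into an Argonaute protein and pairs with target messenger RNAs mainly through its seed, bases 2 to 8 from its 5′ end. The human counterpart of Mir322 is MIR424. Mir322 and Mir503 are known for restraining cell cycle genes such as those of D-type cyclins and Cdc25 phosphatases, for their induction when myoblasts stop dividing, and for activity in early cardiac progenitors. Neighbouring hairpins on the same strand are often cut from a shared primary RNA, which these libraries of short fragments do not measure. The tables give reads per hairpin gene and do not separate the 5p arm from the 3p arm.

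The cluster spans chrX:53047997-53054349 on the minus strand (mm10), 6353 bases. Mir322 (ENSMUSG00000065418.1) comes first in the direction of transcription at chrX:53054255-53054349, followed after 200 bases by Mir503 (chrX:53053984-53054054) and after a further 630 by Mir351 (chrX:53053255-53053353). A gap of 3767 bases separates Mir351 from Mir542 (chrX:53049403-53049487), and 1035 bases separate Mir542 from Mir450-2 (chrX:53048299-53048367). Mir450-1 (chrX:53048154-53048244) and Mir450b (chrX:53047997-53048078) then follow at gaps of 54 and 75 bases. None of the 7 hairpins overlaps another GENCODE M21 gene, so none is annotated as exonic or intronic. The processed transcript C430049B03Rik ends 696 bases upstream of Mir322 on the same strand. The lincRNA Gm28730, also on that strand, lies in the gap between Mir351 and Mir542 and begins 95 bases after Mir351.

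Mature forms are shown first because the 5p seeds of Mir322 and Mir351 occur in detected genes outside the cluster. Those of the other arms do not. Sequences are from RefSeq (GRCm38.p6), and both arms of all 7 genes were found there. The seed is in capitals. Mir322 and Mir503 carry 5p arms related to the miR-15/16 family, and the seed of miR-503-5p departs from that of miR-322-5p at its last base (A8G, counted from the 5′ end of miR-322-5p).
miR-322-5p: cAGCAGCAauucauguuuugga
miR-503-5p: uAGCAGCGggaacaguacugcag
miR-16-5p: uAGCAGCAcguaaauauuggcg
miR-195a-5p: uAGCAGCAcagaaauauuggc
miR-497a-5p: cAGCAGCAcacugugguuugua
Beyond the seed these forms diverge. Compared position by position without gaps, miR-322-5p matches miR-16-5p at 12 of 22 positions and miR-497a-5p at 15 of 22.

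Mir351 has a 5p arm with the seed of the miR-125 family. It is identical to miR-125a-5p over the first 8 bases. Position by position from the 5′ end it matches at 10 of 24, a comparison without gaps that misses shifted stretches.
miR-351-5p: uCCCUGAGgagcccuuugagccug
miR-125a-5p: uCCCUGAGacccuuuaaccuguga
miR-125b-5p: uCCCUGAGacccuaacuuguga

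Mir542 is shown with both arms. The 3p seed occurs in no other counted gene, and the 5p seed is shared with Mir6966 alone.
miR-542-5p: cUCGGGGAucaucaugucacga
miR-542-3p: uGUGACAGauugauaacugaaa

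The Mir450 genes are shown because their sequences overlap, which bears on whether a read can be assigned. Mir450-1 and Mir450-2 encode the same 5p form, miR-450a-5p, and their hairpins share a stretch of 25 bases. The 3p forms of Mir450-1 and Mir450b are identical over their first 18 bases and differ by G19A and C20A, counted from the 5′ end of miR-450b-3p.
miR-450a-5p: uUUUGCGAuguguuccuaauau
miR-450b-5p: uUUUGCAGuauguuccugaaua
miR-450a-1-3p: aUUGGGAAcauuuugcauaaau
miR-450a-2-3p: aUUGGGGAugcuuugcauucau
miR-450b-3p: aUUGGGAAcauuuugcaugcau
Reads that hold only miR-450a-5p fit 2 hairpins, and reads with several mapping positions are listed in the tables apart from the gene counts. The counts of Mir450-1 and Mir450-2 are therefore uncertain and may be too low. The other 5 members share fewer than 20 bases with any other counted hairpin, the longest such stretch being 19 bases between Mir450b and Mir450-1. Of all detected genes, 23.5% share 20 bases or more with another hairpin.

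The hairpins of the pair that held most of the counts are given in full from the GENCODE M21 transcripts, with the 5p and then the 3p arm in capitals.
Mir322: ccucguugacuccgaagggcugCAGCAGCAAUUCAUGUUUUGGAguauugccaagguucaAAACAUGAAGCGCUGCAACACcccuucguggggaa
Mir351: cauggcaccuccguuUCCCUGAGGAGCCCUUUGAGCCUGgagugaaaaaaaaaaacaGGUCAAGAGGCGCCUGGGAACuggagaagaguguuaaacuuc

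Gene counts summed to 3748432 in replicate 1 and 6305782 in replicate 2, and levels are given as CPM, counts scaled to a total of 1000000. A read spans a mature form of 21 to 24 bases in these genes, so CPM was not divided by hairpin length. A count of 0 allows up to 3 counts, or 0.800 CPM in replicate 1 and 0.476 CPM in replicate 2. Reads with several mapping positions were 36.8% and 48.1% of all reads and unmapped reads 16.0% and 11.5%. Their part in the differences between the libraries was not tested. Of the 7 genes fixed as cardiac muscle markers, 6 were detected, with a summed level of 8318 and 12455 CPM, while the low Mir1a and Mir133a genes share sequence with other hairpins. Of these 6, 3 were at least 2-fold higher in replicate 2 by log2 ratio after TMM scaling (trimmed mean of M-values, edgeR), namely Mir208b at 2.29, Mir1a-2 at 1.37 and Mir499 at 1.21, and Mir208a was lower at -1.31. Endothelial Mir126a had 88956 and 100563 CPM, and the smooth muscle markers summed to 44790 and 53313 CPM. Red cell markers summed to 9908 and 8704 CPM, leukocyte markers to 1567 and 1520 CPM and epithelial markers to 434 and 512 CPM. Within these sums Mir142 and Mir223 of leukocytes and epithelial Mir200b were at least 2-fold higher in replicate 2 (log2 ratios 1.27, 2.12 and 1.95). Liver Mir122 (57.9 and 77.7 CPM) and skeletal muscle Mir206 (26.9 and 19.5 CPM) were low. The 6 brain genes had 2 counts in each library, with 4 of them at 0 in both. The part of any of these cell types in the results was not tested, and in whole tissue fewer cells of a type and less RNA per cell cannot be told apart.

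The cluster as a whole took nearly the same share of the heart microRNA counts in both libraries, and almost all of it came from Mir322 and Mir351. It held 103156 counts in replicate 1, or 2.75% of all gene counts (exact Clopper-Pearson 95% interval 2.74% to 2.77%), and 183669 in replicate 2, or 2.91% (2.90% to 2.93%). The mean share was 2.83% ± 0.114 (SD, n = 2). Mir322 and Mir351 supplied 94.3% of it in replicate 1 and 94.6% in replicate 2. The column for the opposite strand held no count for any member in either library. Reads copied by amplification are not separate molecules, so these intervals, exact at 95% throughout, hold counting error and nothing else.

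On chromosome X, 33 of 142 microRNA genes were detected. The cluster held 49.4% of all chromosome X microRNA counts in replicate 1 and 55.6% in replicate 2.

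**Figure D1:**
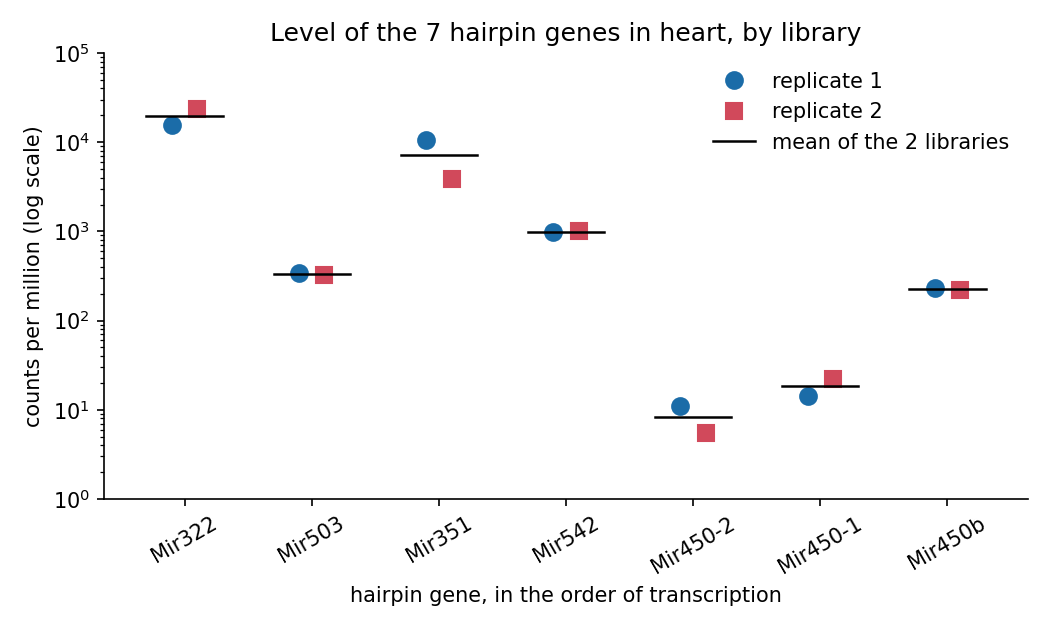
Level of each hairpin gene in CPM (vertical log axis), ordered along the cluster in the direction of transcription. Circles and squares are replicates 1 and 2 and bars their mean. Mir322 and Mir351 stand above the rest, and Mir450-2 and Mir450-1 lie lowest, on counts that may be too low.

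Mir322, the member with the miR-15/16 seed, led the cluster with 57963 counts in replicate 1 and 149538 in replicate 2. These equal 15463 and 23714 CPM, a mean of 19589 ± 5834 CPM (SD, n = 2). Its mean was 7670 when scaled to all reads of the library and 54378 when the 10 most abundant genes were left out of the total. It ranked 13th among all genes in replicate 1 and 11th in replicate 2, between Mir30d (20912 and 22841 CPM) and Mir99b (25054 and 12567 CPM) in mean level. Both libraries thus placed Mir322 among the leading genes of the assigned reads, with the higher level in replicate 2.

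Mir503, its neighbour and relative by seed, was far lower, with 1274 and 2062 counts. Its level was 340 and 327 CPM, with a mean of 333 ± 9.10 CPM. Mir322 exceeded Mir503 45.5-fold in replicate 1 (interval 43.0 to 48.1) and 72.5-fold in the other library (69.4 to 75.8), although only 200 bases separate the hairpins. That ratio of counts within a library does not depend on how the libraries are scaled.

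Mir351, the member with the miR-125 seed, was the other abundant gene and the uneven one. It had 39307 counts in the smaller library, replicate 1, and 24231 in the larger, replicate 2. These are 10486 and 3843 CPM, a mean of 7164 ± 4698 CPM, and its rank went from 18th in replicate 1 to 34th in replicate 2. Mir351 was high in replicate 1 and low in replicate 2, the reverse of Mir322, and the levels of these 2 genes did not overlap.

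Mir542, whose 3p form is known for targeting survivin, lay between these extremes. It had 3647 and 6290 counts, or 973 and 997 CPM, with a mean of 985 ± 17.4 CPM. It lies after the longest gap of the cluster and still exceeded Mir503, which lies before it, 2.86-fold in replicate 1 (2.68 to 3.05) and 3.05-fold in replicate 2 (2.90 to 3.21).

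The Mir450 genes, the least studied of the cluster, closed the row. Mir450b had 871 and 1372 counts, or 232 and 218 CPM, with a mean of 225 ± 10.5 CPM. Mir450-1 had 53 and 141 counts (14.1 and 22.4 CPM) and Mir450-2 had 41 and 35 (10.9 and 5.55 CPM). Both of these lay below Mir450b in each library, and their shared 5p form has 2 encoding genes.

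Ranked by level, the order was Mir322, Mir351, Mir542, Mir503, Mir450b, Mir450-1 and Mir450-2, and it was the same in both libraries. The levels of neighbours in this order did not overlap between the libraries. The closest pair was Mir450-1 and Mir450-2, whose ratio in replicate 1 was 1.29 with a counting interval of 0.844 to 1.99, so they could not be told apart at that depth. In replicate 2 the ratio was 4.03 (2.77 to 6.01). From the highest to the lowest member the mean level spanned 2376-fold, and 87.1-fold among the 5 members without a shared stretch of 20 bases. Level did not follow position: Mir351 and Mir542 exceeded Mir503, which precedes them, and Mir450b exceeded the 2 hairpins before it. The place of Mir450b rests on the counts of Mir450-1 and Mir450-2, which may be too low.

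**Figure D2:**
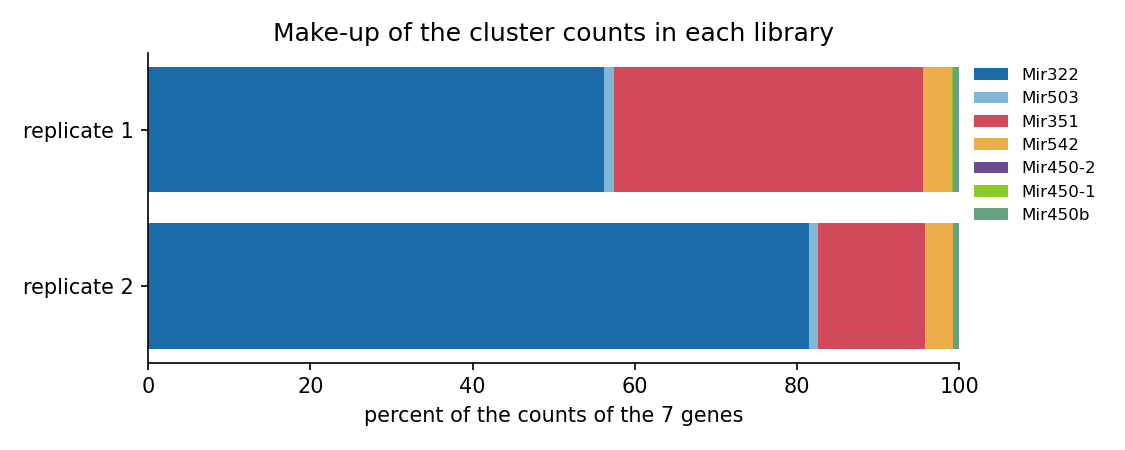
Percent of the counts of the 7 genes (horizontal axis) taken by each gene in each library. Mir322 filled 56.2% of the bar in replicate 1 and 81.4% in replicate 2, and Mir351 filled 38.1% and 13.2%, while the rest of the bar hardly differed.

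The total of the cluster hid a different make-up in each library. Mir322 took 56.2% of the cluster counts in replicate 1 (interval 55.9% to 56.5%, exact) and 81.4% in the other (81.2% to 81.6%). Mir351 took 38.1% in replicate 1 (37.8% to 38.4%) and 13.2% in replicate 2 (13.0% to 13.3%). The higher share of Mir322 in replicate 2 stood beside a lower share of Mir351, and the share of the other 5 together was nearly equal. Because these 2 genes held nearly all of the counts, a higher share of 1 entails a lower share of the other. With Mir322 out of the denominator, Mir351 took 87.0% in replicate 1 and 71.0% in replicate 2. Mir542 then took 8.07% and 18.4%, and Mir503 2.82% and 6.04%. Mir542 took 3.54% and 3.42%, Mir503 1.24% and 1.12% and Mir450b 0.844% and 0.747%.

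The ratio of Mir322 to Mir351 was 1.47 in replicate 1 (interval 1.46 to 1.49) and 6.17 in the other library (6.09 to 6.26), a 4.19-fold difference between the libraries. On the log2 scale that ratio was 1.59 ± 1.46 (SD, n = 2), so its size is poorly fixed by 2 libraries, though Mir322 was the higher of the pair in both. The other ratios among unshared members were steadier. Mir542 to Mir503 differed 1.07-fold between the libraries and Mir503 to Mir450b 1.03-fold. Mir322 to Mir542 differed 1.5-fold and Mir351 to Mir503 2.63-fold. The ratios among Mir542, Mir503 and Mir450b thus had overlapping counting intervals in the 2 libraries, and Mir322 and Mir351 departed from them in opposite directions.

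**Figure D3:**
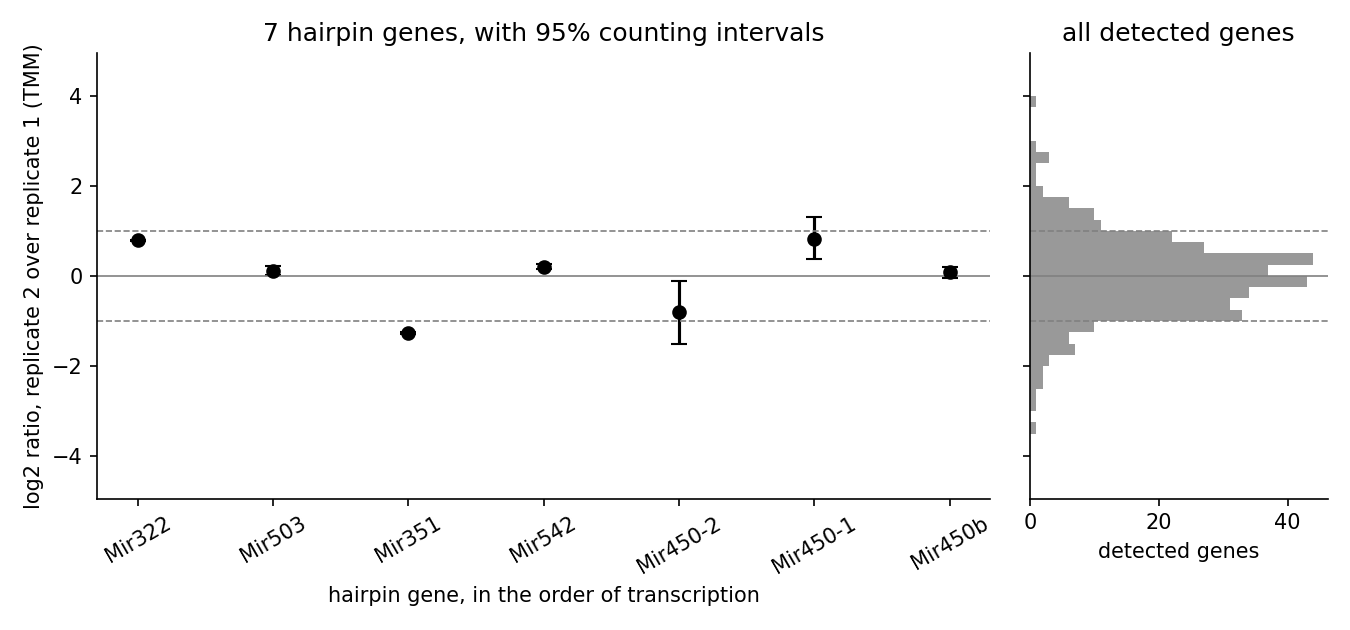
Left, log2 ratio of replicate 2 over replicate 1 after TMM scaling for each hairpin gene, with exact 95% counting intervals. Right, the same ratio over the 340 detected genes, with dashed lines at 2-fold. Mir351 alone of the 7 lies past a dashed line.

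Set against all detected genes, the number of members past 2-fold was close to the background, and that member was Mir351. Ratios between libraries were computed after TMM scaling, which moved every log2 ratio against total counts. All ratios fell by 0.17 on the log2 scale when total counts were used instead. With 1 library on each side these values compare the 2 libraries, and no p-value is given. Of the 7 members, 1 differed by at least 2-fold, Mir351, against 20.3% of the 340 detected genes. In the lower direction the background was 9.71%, and in the higher direction, where no member passed, it was 10.6%.

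Mir351 was 2.42-fold lower in replicate 2 (log2 ratio -1.28, exact 95% interval -1.30 to -1.25), and 6.47% of detected genes had a lower ratio. Among the 25 genes at least as abundant as Mir351 by mean CPM, it was the only one at least 2-fold lower in replicate 2. That set ends at Mir351 itself, so this does not make its drop exceptional. Of the 340 detected genes 33 were at least 2-fold lower, among them the less abundant Mir149 (5421 and 2362 CPM) and Mir107 (4485 and 1044 CPM). Mir322 was 1.73-fold higher (log2 ratio 0.79, interval 0.77 to 0.80), and 15.9% of detected genes had a higher ratio.

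The remaining members lay nearer to equality or were imprecise. Mir542 had a log2 ratio of 0.21, or 0.04 with total counts, and it was lower in replicate 2 as a part of all reads. Mir503 had 0.12 and Mir450b 0.08, and both turned to -0.06 and -0.10 with total counts, so they have no settled direction. Mir450-1 had 0.82 (interval 0.37 to 1.32) and Mir450-2 had -0.80 (-1.5 to -0.12), both on low and uncertain counts. The interval excluded equality for 6 of 7 members, 4 higher and 2 lower in replicate 2, against 72.1% of detected genes, 35.3% higher and 36.8% lower. With total counts it did so for 4 members, 2 higher and 2 lower, against 71.8%, since Mir503 and Mir542 no longer passed. The median log2 ratio of the members was 0.12 beside -0.02 over all detected genes, and the median absolute log2 ratio was 0.79 beside 0.55. The sum of the cluster had a log2 ratio of 0.25 (0.24 to 0.27), and the sum without Mir322 had -0.98 (-1.0 to -0.96). As a part of all reads, however, the sum of the cluster was lower in replicate 2.

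**Figure D4:**
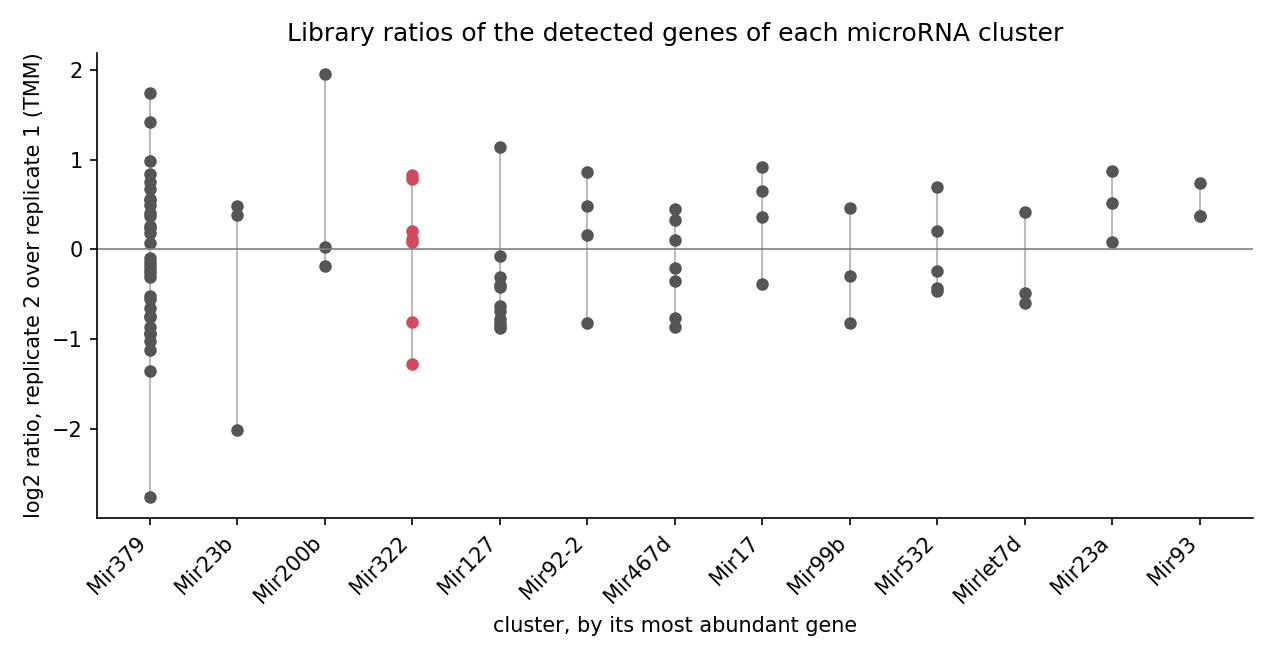
Log2 ratio of replicate 2 over replicate 1 after TMM scaling (vertical axis) for each detected gene of the 13 clusters with at least 3 detected genes, each named by its most abundant gene. The cluster of Mir322 (coloured) spans 2.10, rank 4 of the 13 from the widest.

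Other microRNA clusters gave a measure of how evenly neighbours are counted. Clusters were defined as microRNA genes on the same strand with gaps of at most 10 kb, and 13 had at least 3 detected genes. The log2 ratios between the libraries spanned 2.10 within the cluster of Mir322, rank 4 from the widest, against a median of 1.32. The 2 most abundant genes of each cluster differed in log2 ratio by a median of 0.44, and Mir322 and Mir351, which differed by 2.07, were the furthest apart of the 13 such pairs. The next was the pair of Mir200b and Mir429, at 1.92 and far lower levels. The difference of the 2 most abundant genes was not among the planned measures. It takes up the contrast of Mir322 and Mir351 already described, so its rank is no separate support for that contrast. The level range of the Mir322 cluster, 11.21 on the log2 scale, was the widest of the 13. Without genes that share 20 bases with another hairpin, 9 clusters kept at least 3 detected genes. The level range of the Mir322 cluster was then 6.44 and its range of log2 ratios 2.07, both at rank 3 of the 9.

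Against 3 well-known clusters the difference was as follows. These 3 are among the more even, at ranks 8 (miR-17-92), 10 (Clcn5) and 13 (Mcm7) of the 13 in range of log2 ratios. The clusters of Mir379 (range 4.50), Mir23b (2.49) and Mir200b (2.14) were wider than that of Mir322. The X-linked row in Clcn5, led by Mir532, had log2 ratios from -0.46 (Mir501) to 0.69 (Mir362) over 5 detected genes. The miR-17-92 row, tied to proliferation, ran from -0.39 (Mir92-1) to 0.92 (Mir20a) over 4 detected genes. The row in Mcm7 ran from 0.37 (Mir106b) to 0.74 (Mir25) over its 3 genes. The cluster of Mir322 ran from -1.28 (Mir351) to 0.825 (Mir450-1), and no gene of those 3 rows reached 2-fold in either direction among the detected. On chromosome X outside the cluster, 3 of 26 detected genes were at least 2-fold higher in replicate 2 and 0 were at least 2-fold lower, with a median log2 ratio of 0.17.

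**Figure D5:**
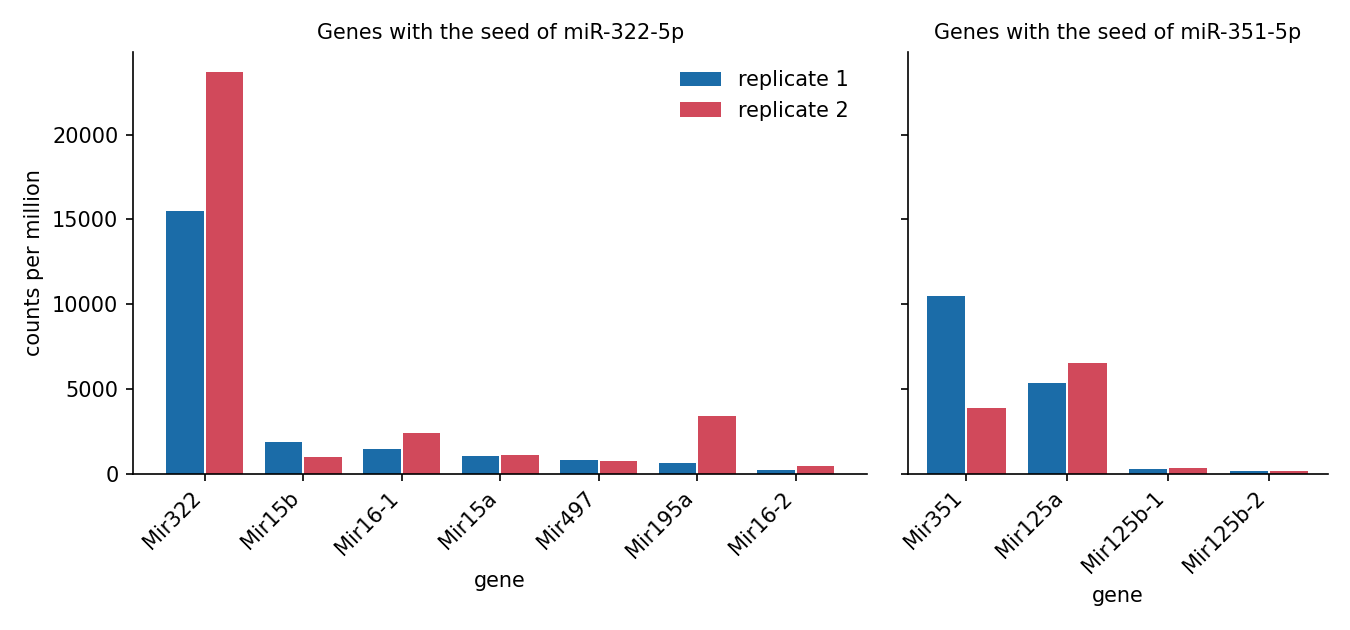
CPM (vertical axis, from 0) of the genes that share the seed of miR-322-5p (left) and of miR-351-5p (right), by library. Mir322 exceeds every other gene of its seed in both libraries, while Mir351 and Mir125a change places between them.

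Among genes that share the seed of miR-322-5p, Mir322 held most of the counts in both libraries. The seed occurs in 11 counted genes, of which 7 were detected and 4 had no count. Mir322 took 72.3% of their counts in replicate 1 (interval 72.0% to 72.6%) and 72.4% in the other library (72.2% to 72.6%), or 72.4% ± 0.105 (SD, n = 2). It exceeded the other genes of the seed together 2.61-fold and 2.63-fold. Those other genes summed to 5926 and 9021 CPM, a log2 ratio of 0.78 (0.76 to 0.80) beside 0.79 for Mir322.

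The even share did not extend to the single genes. Mir195a had 634 and 3377 CPM, a log2 ratio of 2.58. Mir15b ran the other way with 1834 and 965 CPM (log2 ratio -0.75), and Mir16-1 had 1423 and 2410 CPM. Mir15a had 1048 and 1097 CPM and Mir497 had 781 and 724 CPM. Of the 6 listed genes, 2 were at least 2-fold higher in replicate 2 (Mir195a and Mir16-2) and 0 lower. Mir16-1 and Mir16-2 encode the same miR-16-5p, so their counts are uncertain and the share of Mir322 may be overstated.

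The seed of miR-351-5p gave no such constancy. It occurs in 6 counted genes, of which 4 were detected. Mir351 took 64.5% of their counts in replicate 1 (64.1% to 64.9%) and 35.4% in replicate 2 (35.0% to 35.8%). Mir125a, a partner of let-7 in its own cluster, had 5342 and 6540 CPM, below Mir351 in replicate 1 and above it in replicate 2. Mir125b-1 (289 and 309 CPM) and Mir125b-2 (143 and 163 CPM) encode the same miR-125b-5p. Their counts are uncertain for that reason, and the share of Mir351 may be overstated in both libraries. The 3 miR-125 genes had log2 ratios of 0.27 to 0.46 and Mir351 one of -1.28.

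The detected gene outside the cluster nearest to each member was found by Euclidean distance on log2(CPM + 1) over the 2 libraries, a likeness of level that 2 samples cannot make into a shared pattern. For Mir322 it was Mir335 (12191 and 20015 CPM, distance 0.42). For Mir351 it was Mir22 (7113 and 4881 CPM, distance 0.66), the most distant of the 7 matches. Mir542 lay nearest to Mir15a (0.17), Mir503 to Mir434 (0.15) and Mir450b to Mir330 (0.14). Mir450-1 lay nearest to Mir20b (0.23) and Mir450-2 to Mir7688 (0.03).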

How the data were processed

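Each library came as a table of raw counts that the authors deposited, made on mm10 with GENCODE M21 per their accompanying text. The aligner and counter were not given in the sources used here. The meaning of the 3 count columns (both strands, gene strand, opposite strand) was inferred from the values, and the gene-strand column was used. Entries for unmapped, multiply mapping and unassigned reads stayed out of the totals. All 2202 identifiers matched GENCODE M21. Ratios used TMM over the genes that had 10 counts or more in each library (edgeR 4.0.16, R 4.3.3) and a prior of 0.5 counts. Exact binomial 95% intervals came from SciPy 1.17.1. DESeq2 1.42.0 size factors, total counts and other TMM sets were alternatives. The ratio procedure was tested on simulated counts with set changes and counting error alone. That test does not cover other variation between libraries. Both samples carry the same donor identifier in the labels but differ in sample name, and were taken as separate mice. Named genes were the members, the seed lists, 3 comparison clusters and the nearest genes. The members and lists were chosen with earlier results of these data known. Of the 6 names listed for the Clcn5 cluster, 5 were matched.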

Additional observations from a re-analysis of the deposited data

How the results depend on the processing

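With 2 libraries of 1 group, each value without replicate 1 or replicate 2 is that of the other library, as given above: the cluster share ran from 2.75% to 2.91%, the share of Mir322 within the cluster from 56.2% to 81.4% and the log2 ratio of Mir322 to Mir351 from 0.56 to 2.63. The mean cluster share was 7.92% when the 10 most abundant genes were left out of the total and 3.89% with the column for both strands, since both shrink the total. Levels of members changed with these totals too, and scaled to all reads they were lower, for instance 2936 for Mir351 and 391 for Mir542 in place of 7164 and 985 CPM. The log2 ratio of the summed cluster was 0.082 with total counts, 0.27 with DESeq2 size factors, 0.24 with TMM without the members and 0.22 with TMM over all genes with a count. Its sign stayed the same under these scalings, all of them set from counts assigned to genes. As a part of all reads the cluster was instead lower in replicate 2 (183669 of 17033667) than in replicate 1 (103156 of 8835703). Its direction between the libraries is therefore not settled. Under the scalings from gene counts and a prior of 2 counts, Mir351 ranged from -1.45 to -1.26 and Mir322 from 0.62 to 0.805. The number of members past 2-fold stayed at 1. Intervals excluded equality for 6, 4, 6, 5 and 5 members with TMM, total counts, DESeq2 size factors, TMM without the members and TMM over all genes with a count, the alternatives to TMM here being chosen after seeing the data. All 7 members were detected at minimums of 3, 10 and 30 counts. An alternative chosen after seeing the data, without genes that share 20 bases, gave a level range of 6.44 and a range of log2 ratios of 2.07 (log2) for the cluster, because Mir450-1 and Mir450-2 drop out. Shares of members within the cluster did not change with the column for both strands, and without Mir322 in the denominator Mir351 took 79.0% on average. No paired analysis was possible because the series has 1 group. Low counts and reads that fit both hairpins limit the values of Mir450-1 and Mir450-2. Depth and the choice of scaling limit the direction of Mir450b, Mir503 and Mir542 between the libraries. The choice of scaling also limits the direction of the summed cluster.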
